A study of Mus musculus with 8 samples.

Results

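The 5 gap junction and pannexin genes Gja1, Gjb6, Gjb2, Gjc3 and Panx1 were followed across 8 libraries of flow-sorted mouse astrocytes. They were chosen by name, as connexin and pannexin genes of glia, and each matched 1 of the 55417 gene rows by its Ensembl identifier. Cortical and subcortical astrocytes came from the same 4 wild-type mice at postnatal day 29, 2 of them female (mice 2 and 3) and 2 male (mice 1 and 4), so that 4 cortical libraries stood against 4 subcortical ones. None of the groups carried a treatment or a named transgene in the labels, and a tdTomato reporter row had 0 counts in all 8 libraries. The libraries counted the 3′ ends of polyadenylated transcripts, about 1 fragment per transcript, so levels of different genes could be set side by side without dividing by length. Levels are given in CPM (counts per 1000000 counts of a library), computed on totals scaled with edgeR's TMM method.

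Connexins are membrane proteins that assemble into hemichannels, and hemichannels of neighbouring cells dock to form gap junctions. In the adult brain, astrocytes are known to couple to each other through connexin 43 and connexin 30, the products of Gja1 and Gjb6, which pass potassium, glucose and second messengers through the astrocyte network. Oligodendrocytes use other connexins, among them connexin 32 (Gjb1) and connexin 29 (Gjc3), and junctions between both cell types can join connexin 30 to connexin 32. Pannexin 1 (Panx1) forms large-pore membrane channels that release ATP and is not known to build gap junctions in brain.

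Gene counts summed to 3537852 to 4060891 per cortical library and to 2484717 to 3829804 per subcortical library. Mitochondrial transcripts took 8.95 to 11.3% of cortical and 9.40 to 13.6% of subcortical counts. All 10 astrocyte markers followed were detected in both regions, with summed levels of 30740 to 32220 CPM in cortical samples against 19690 to 21680 CPM in subcortical samples. Of these markers 3 rose and 1 fell in cortical cells, against 3.42% of all genes tested called higher and 3.39% lower. Their log2 fold changes ran from -1.12 for the water channel gene Aqp4 to 1.27 for the glutamate transporter gene Slc1a3. Transcripts of other cells were present at lower levels, foremost of oligodendrocytes, whose 12 markers summed to 912 to 1444 CPM in cortical samples against 2363 to 5948 CPM in subcortical samples, and of mural cells of blood vessels, at 476 to 1074 CPM in cortical and 345 to 1246 in subcortical samples. Summed markers of microglia stood at 164 to 357 CPM in cortical and 121 to 208 in subcortical samples, and those of neurons at 86.0 to 166 CPM in cortical and 39.9 to 63.7 in subcortical samples. Ependymal markers summed to 67.0 to 130 CPM in cortical and 107 to 137 in subcortical samples, and leptomeningeal fibroblast markers to 62.6 to 103 CPM in cortical and 156 to 213 in subcortical samples. Oligodendrocyte precursor markers summed to 12.5 to 30.0 CPM in cortical samples against 18.7 to 42.4 CPM in subcortical samples, with Gpr17 at 0, and endothelial markers to 5.84 to 12.3 CPM in cortical and 3.90 to 24.1 in subcortical samples. Lum and Slc22a6 of the fibroblast list were also at 0.

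Gja1 and Gjb6 supplied most connexin transcripts of the sorted cells in both regions. Gjc3 was 8.62-fold lower in cortical cells. Relative to each other, Gjb6 made up less and Gja1 more of the connexin counts in cortical cells, while the level of each by itself depended on how libraries were scaled. Gjb2 was a minor transcript, and Panx1 was close to absent at this depth. With edgeR's quasi-likelihood test of 11781 genes and Benjamini-Hochberg adjustment, 1 of the 4 tested members, Gjc3, passed an adjusted p of 0.05, lower in cortical cells. Over all genes tested 6.81% passed, 403 (3.42%) higher and 399 (3.39%) lower in cortical cells (682 and 244 without TMM scaling, which raised the median log2 fold change of all genes by 0.20). The ranges of the cortical and subcortical libraries did not overlap for 2 members, Gjb6 and Gjc3, against 12.2% of all genes tested. On unscaled totals the 2 members without overlap were Gja1 and Gjc3. The share of all genes without overlap was not computed on that scale, so this count has no background beside it.

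Gja1 (ENSMUSG00000050953), the connexin 43 gene, stood at 1788, 1842, 1903 and 1862 CPM in the cortical libraries of mice 1 to 4, against 1829, 1591, 1541 and 1694 CPM in their subcortical libraries. The cortical libraries lay within a narrow band that the highest subcortical library, of mouse 1, reached into, and the cortical value was the higher one in 3 of 4 mice. The means were 1849 ± 48.0 CPM in cortical samples against 1664 ± 127 CPM in subcortical samples (SD, n = 4). The log2 fold change of 0.15 (SE 0.14, 95% interval -0.13 to 0.44) did not pass the test (edgeR adjusted p = 0.652). On unscaled totals Gja1 was at 1975 ± 61.5 CPM in cortical samples against 1540 ± 139 in subcortical ones (SD, n = 4), without overlap, and its log2 fold change of 0.36 did not pass either (edgeR adjusted p = 0.146). The median log2 fold change of all genes was 0.19 on that scale. Gja1 ranked between 39 and 44 among all genes of a cortical library and between 45 and 49 among those of a subcortical one.

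Gjb6 (ENSMUSG00000040055), which encodes connexin 30, had 1124, 1200, 1076 and 1128 CPM in the cortical libraries of mice 1 to 4, against 1353, 1426, 1565 and 1669 CPM in the subcortical ones. On these TMM-scaled sizes every cortical library lay below every subcortical one. The means were 1132 ± 51.0 CPM in cortical samples against 1503 ± 141 CPM in subcortical samples (SD, n = 4), a log2 fold change of -0.41 (SE 0.14, 95% interval -0.71 to -0.11). The call depended on the tool: the adjusted p was 0.0979 by edgeR, above the threshold, and 0.0109 by DESeq2 and 0.0368 by limma-voom, below it. On unscaled totals Gjb6 had 1281, 1266, 1138 and 1154 CPM in the cortical libraries of mice 1 to 4, against 1201, 1194, 1642 and 1564 CPM in the subcortical ones. The groups then overlapped, and the cortical value was the higher one in mice 1 and 2 and the lower one in mice 3 and 4 (log2 fold change -0.21, edgeR adjusted p = 0.513). Gjb6 ranked between 64 and 79 among the genes of a cortical library and between 46 and 65 among those of a subcortical one.

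**Figure D1:**
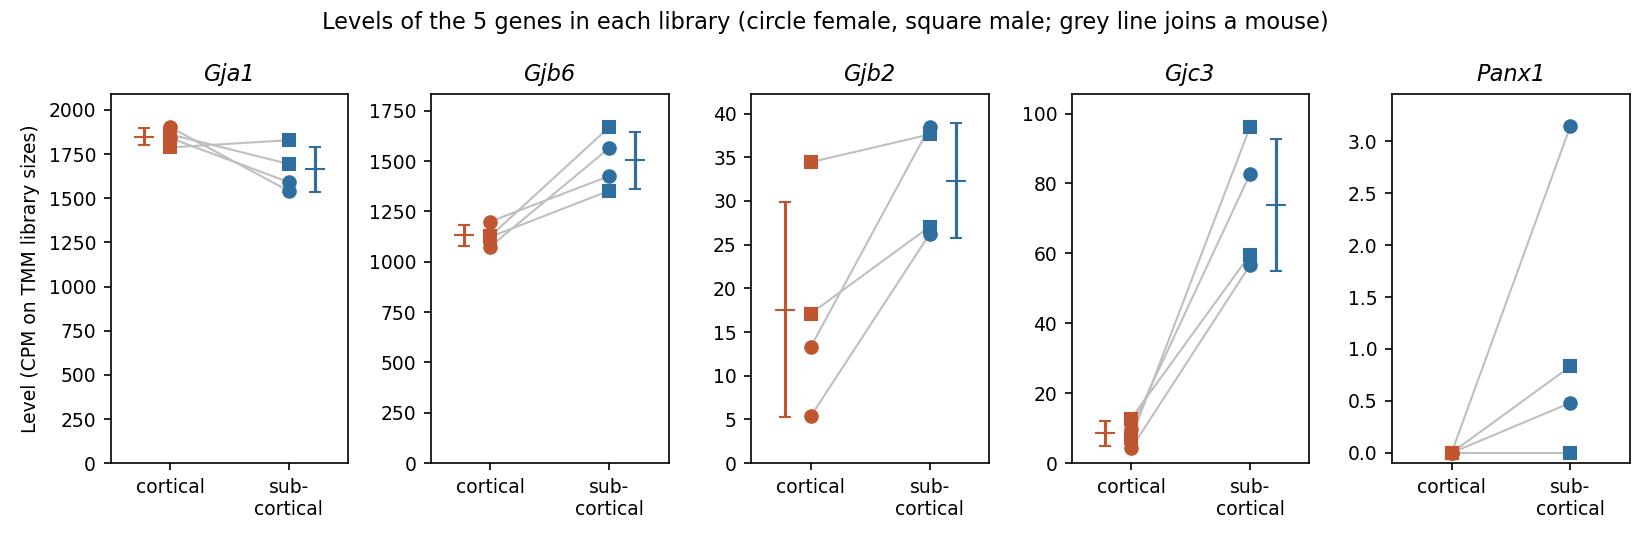
Level of each of the 5 genes in CPM on TMM-scaled library sizes (vertical axes, starting at 0 except for a margin below 0 for Panx1) in cortical and subcortical libraries, with a grey line joining the samples of a mouse, circles for females and squares for males. Bars beside the points are mean ± SD (n = 4), left out for Panx1, and the Gjc3 points of the cortical libraries (4.21 to 12.8 CPM) all lie below those of the subcortical libraries (56.6 to 96.1 CPM).

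The stretch of 250 bases before the annotated gene start is shown for the 4 connexin members, because most values below concern these 4 genes. The sequences are from RefSeq on GRCm38.p6, another build than the GRCm39 of the counts, and run 5′ to 3′ on the strand of the gene. Capitals mark matches to 3 motifs, chosen after the sequences and levels were seen and searched on both strands: the GC box GGGCGG, the AP-1 site TGAGTCA and the SOX core ACAAT.
Gja1 (chr10:56377050-56377299, plus strand): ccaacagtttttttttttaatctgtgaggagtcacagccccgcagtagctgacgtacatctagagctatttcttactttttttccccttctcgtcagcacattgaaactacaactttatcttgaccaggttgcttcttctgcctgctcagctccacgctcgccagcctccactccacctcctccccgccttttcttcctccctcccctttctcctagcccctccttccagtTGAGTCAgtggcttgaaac
Gjb6 (chr14:57133612-57133861, minus strand): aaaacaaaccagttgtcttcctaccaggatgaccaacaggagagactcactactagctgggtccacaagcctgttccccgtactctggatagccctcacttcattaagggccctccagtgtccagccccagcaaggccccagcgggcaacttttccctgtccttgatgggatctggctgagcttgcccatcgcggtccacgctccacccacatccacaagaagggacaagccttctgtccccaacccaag
Gjb2 (chr14:57104703-57104952, minus strand): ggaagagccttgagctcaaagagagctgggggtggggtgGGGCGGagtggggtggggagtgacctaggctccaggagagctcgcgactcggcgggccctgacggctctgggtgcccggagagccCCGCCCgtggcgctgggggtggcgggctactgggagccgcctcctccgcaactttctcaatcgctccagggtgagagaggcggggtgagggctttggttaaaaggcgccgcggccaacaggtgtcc
Gjc3 (chr5:137963099-137963348, minus strand): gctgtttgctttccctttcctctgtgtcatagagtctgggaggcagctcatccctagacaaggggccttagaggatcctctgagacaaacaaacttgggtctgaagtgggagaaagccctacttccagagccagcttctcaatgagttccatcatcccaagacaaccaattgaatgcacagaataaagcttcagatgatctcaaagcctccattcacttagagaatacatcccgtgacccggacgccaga
The Gja1 stretch held 1 AP-1 match, which begins 19 bases before the gene start, and the Gjb2 stretch 2 GC boxes, at 211 and 126 bases before it. No match to any of the 3 motifs was found in the Gjb6 and Gjc3 stretches. Of 32851 RefSeq promoter stretches of the same length, 32.7% held a GC box, 4.46% the AP-1 site and 27.7% the SOX core. These matches describe letters and not binding, which was not measured here. Of the 4, Gjb2 had the richest stretch, with 69.2% G and C and 18 CpG, and Gjc3 the poorest, with 48.8% and 3 CpG. Gja1 had 6 CpG, Gjb6 56.8% and 5 CpG, and the median of all stretches was 52.4% and 6 CpG. Gjb2 and Gjb6 lie near each other on chromosome 14, with 1 annotated gene between them, yet had stretches of unlike composition. In the reference annotation no other gene overlapped any of the 5 members on either strand.

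The balance between both main astrocyte connexins was measured within each library, where it does not depend on how libraries are scaled. Cortical cells had fewer Gjb6 transcripts per Gja1 transcript than subcortical cells. There were 0.629, 0.651, 0.565 and 0.606 Gjb6 counts per Gja1 count in the cortical libraries of mice 1 to 4, against 0.740, 0.896, 1.02 and 0.985 in the subcortical ones. All cortical ratios lay below all subcortical ratios, with means of 0.613 ± 0.037 in cortical and 0.909 ± 0.12 in subcortical cells (SD, n = 4). The mean log2 ratio was -0.71 ± 0.087 in cortical and -0.15 ± 0.21 in subcortical libraries (SD, n = 4), a difference of -0.56 that gave the smallest p possible in a two-sided exact permutation test of 70 splits (p = 0.0286). Tested within mice by exact sign flips, the smallest possible p is 0.13, which was the value obtained. The unpaired exact p was 0.0571 when any 1 of the 4 cortical libraries was left out. Fewer splits are possible then, and the remaining ratios still did not overlap.

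Gja1 made up 60.2, 59.1, 62.8 and 60.4% of all connexin counts in the cortical libraries of mice 1 to 4, against 53.7, 49.8, 47.4 and 48.6% in the subcortical ones. The groups did not overlap, and the mean shares of 60.6 ± 1.54% in cortical and 49.9 ± 2.74% in subcortical libraries (SD, n = 4) differed by 10.7 percentage points (two-sided exact permutation p = 0.0286, the smallest possible, and 0.13 by exact sign flips within mice, also the smallest possible). The share of Gjb6 was 37.1 ± 1.34% in cortical and 45.1 ± 3.91% in subcortical libraries (SD, n = 4). Gjc3 took 0.278 ± 0.12% of connexin counts in cortical and 2.22 ± 0.57% in subcortical libraries (SD, n = 4). Together Gja1 and Gjb6 supplied 97.1 to 98.3% in cortical and 93.5 to 96.5% in subcortical libraries. The Gja1 share was therefore largely set by the ratio of Gjb6 to Gja1 given above. Its test restates that result and is not a second, independent one.

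The summed level of the 20 connexin genes was 3050 ± 62.8 CPM in cortical samples against 3333 ± 133 CPM in subcortical samples (SD, n = 4) on TMM-scaled sizes, where the groups did not overlap. In CPM of unscaled totals it was 3257 ± 102 in cortical and 3093 ± 322 in subcortical libraries (SD, n = 4), which overlapped (two-sided exact permutation p = 0.429). The order of the regions in total connexin level thus turned with the scaling, unlike the ratios within a library.

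**Figure D2:**
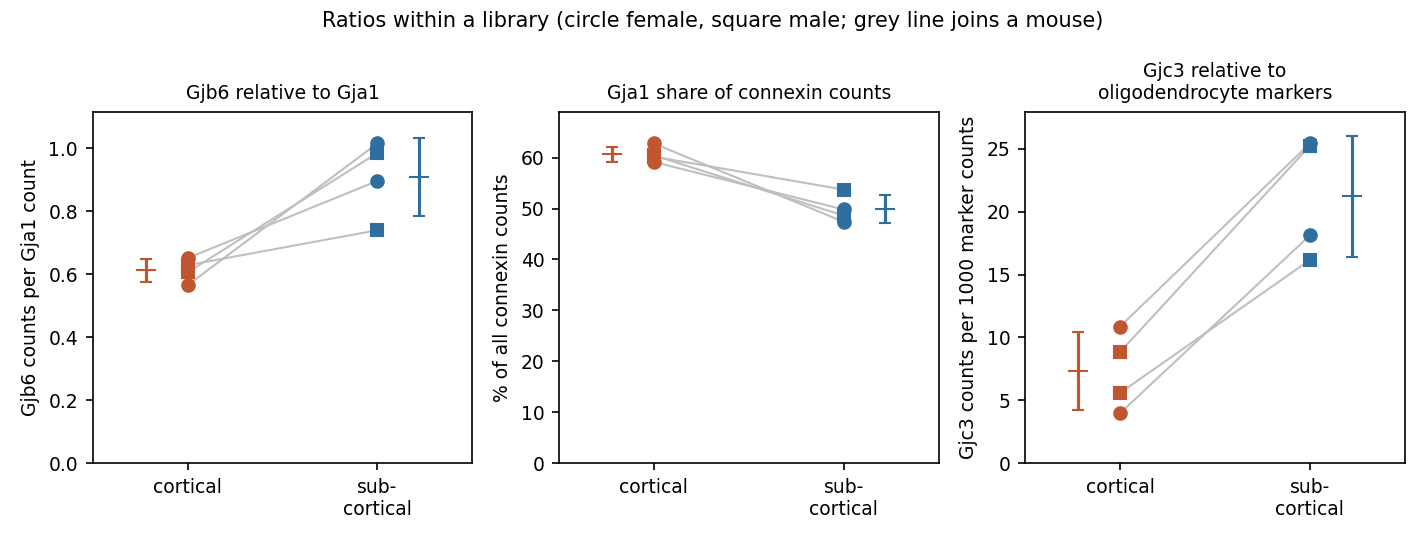
Gjb6 counts per Gja1 count, Gja1 as a percentage of all connexin counts, and Gjc3 counts per 1000 counts of 12 oligodendrocyte markers, each within a library, in cortical and subcortical cells. Grey lines join the samples of a mouse, circles are females, squares are males, bars are mean ± SD (n = 4), and in all 3 panels the cortical and subcortical points do not overlap.

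Gjb2 (ENSMUSG00000046352), the connexin 26 gene, known in the brain from leptomeningeal cells and some astrocytes, rested on 23 to 143 counts in cortical and 65 to 135 in subcortical libraries. It stood at 17.1, 13.3, 5.37 and 34.4 CPM in the cortical libraries of mice 1 to 4, against 27.1, 38.5, 26.2 and 37.6 CPM in the subcortical ones. The cortical value was the lower one in all 4 mice, but the cortical library of mouse 4 lay inside the subcortical range. The means of 17.6 ± 12.3 CPM in cortical samples against 32.3 ± 6.60 CPM in subcortical samples (SD, n = 4) gave a log2 fold change of -0.88 (SE 0.40), which missed the threshold (edgeR adjusted p = 0.247). Without the cortical library of mouse 4 the log2 fold change was -1.44 and passed (edgeR adjusted p = 0.023). It did not pass without any other single library, and without the cortical library of mouse 3 it was -0.58 (edgeR adjusted p = 0.501). Leptomeningeal fibroblast markers also summed to less in cortical samples (62.6 to 103 CPM) than in subcortical ones (156 to 213 CPM), with Lum and Slc22a6 at 0. Of the 3 tested, 1 fell in cortical cells, against 3.39% of all genes tested. It was the collagen gene Col1a2, with a log2 fold change of -1.08. Col1a2 alone averaged 62.4 CPM in cortical and 132 CPM in subcortical samples, and so supplied most of the sum. Col1a1 did not pass (edgeR adjusted p = 0.181), and Slc6a13 averaged 2.20 CPM in cortical and 2.18 in subcortical samples. The part of leptomeningeal cells in the Gjb2 level was not tested.

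Gjc3 (ENSMUSG00000056966), the connexin 29 gene known from oligodendrocytes and Schwann cells, fell in cortical cells. It rested on 18 to 53 counts in cortical and 162 to 231 in subcortical libraries. It stood at 7.20, 9.91, 4.21 and 12.8 CPM in the cortical libraries of mice 1 to 4, against 96.1, 82.7, 56.6 and 59.6 CPM in the subcortical ones. Every cortical library was well below every subcortical one. The means were 8.52 ± 3.67 CPM in cortical samples against 73.8 ± 18.9 CPM in subcortical samples (SD, n = 4), an 8.62-fold difference (log2 fold change -3.11, SE 0.32, 95% interval -3.78 to -2.44, edgeR adjusted p = 7.45e-07). Within mice 1 to 4 the cortical level was 13.4, 8.34, 13.5 and 4.67 times lower than the subcortical one. In cortical cells Gjc3 ranked between 7421 and 10587 among all genes, and in subcortical cells between 1480 and 2535.

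Oligodendrocyte markers moved with Gjc3. All 12 had negative log2 fold changes, and 9 of them passed the test as lower in cortical cells, against 3.39% of all genes tested, with a median of -1.29 against -0.01 over all genes. The myelin enzyme gene Cnp, with a log2 fold change of -0.54, was among the 3 that did not pass (edgeR adjusted p = 0.0573). In bulk libraries, fewer cells of a type and less RNA per cell cannot be told apart. Gjb1, the connexin 32 gene, was scattered, with 6.20, 4.95, 12.9 and 12.5 CPM in the cortical libraries of mice 1 to 4 against 37.0, 9.61, 9.09 and 5.02 CPM in the subcortical ones. It did not pass (log2 fold change -0.72, SE 0.56, edgeR adjusted p = 0.582), and without the subcortical library of mouse 1 its log2 fold change was 0.22.

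Set against the oligodendrocyte markers of the same library, Gjc3 was still lower in cortical cells. It had 5.58, 10.9, 3.97 and 8.84 counts per 1000 marker counts in the cortical libraries of mice 1 to 4, against 16.2, 25.4, 18.1 and 25.2 in the subcortical ones. These ranges did not overlap, and the mean log2 ratios differed by -1.58 (two-sided exact permutation p = 0.0286, the smallest possible). Exact sign flips within mice gave p = 0.13, the smallest they can give, and the unpaired exact p was 0.0571 without the subcortical library of mouse 2 and likewise without that of mouse 4. The remaining ratios did not overlap in either case. Gjb1 had 7.76 ± 3.37 counts per 1000 marker counts in cortical and 3.55 ± 1.82 in subcortical libraries (SD, n = 4). Whether the remaining Gjc3 difference lies in astrocytes, in oligodendrocytes or in both cannot be told apart in these libraries.

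**Figure D3:**
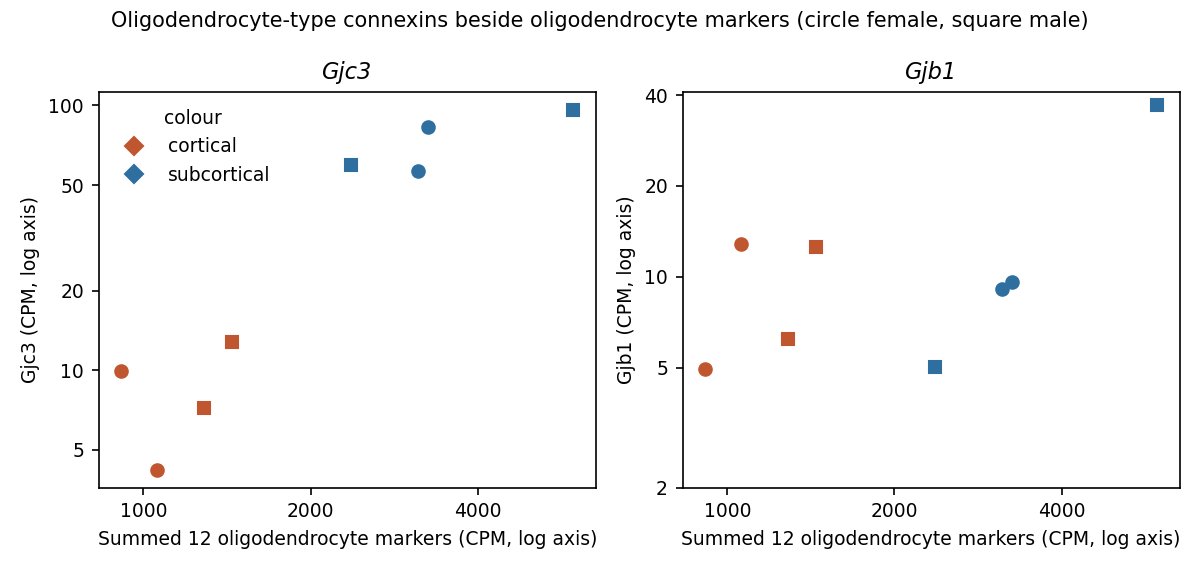
Gjc3 and Gjb1 levels (vertical log axes, CPM) against the summed level of 12 oligodendrocyte markers (horizontal log axis, CPM) in each of the 8 libraries, circles female and squares male. The subcortical libraries lie higher than the cortical ones on the marker axis and in Gjc3, while the Gjb1 points overlap, with marker sums of 912 to 1444 CPM in cortical and 2363 to 5948 CPM in subcortical libraries.

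Panx1 (ENSMUSG00000031934) had 0 counts in all 4 cortical libraries and 2, 1, 9 and 0 counts in the subcortical libraries of mice 1 to 4. A count of 0 allows 0.70 to 1.44 CPM in a single library, covering counting error only. With the 4 libraries of a region pooled and 3 counts taken as the cortical floor, the subcortical Panx1 level was 5.96 times that floor in CPM. This figure makes no allowance for error in the 12 subcortical counts, and 9 of these were in the subcortical library of mouse 3. Without that library the subcortical group was at 3 counts, the number taken as the floor, and at 2.02 times the cortical floor in CPM. Panx1 did not pass the filter on low counts and was not tested. The related Panx2 was also near the floor, with 25 counts over the cortical and 15 over the subcortical libraries, of which 20 were in the cortical library of mouse 2, and Panx3 had 0.

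By mean level the members ranked Gja1, Gjb6, Gjb2, Gjc3 and Panx1 in cortical cells, and Gja1, Gjb6, Gjc3, Gjb2 and Panx1 in subcortical cells. The cortical ranges of Gjb2 (5.37 to 34.4 CPM) and Gjc3 (4.21 to 12.8 CPM) overlapped, but within a library Gjb2 was above Gjc3 in all 4. The subcortical ranges of Gja1 (1541 to 1829 CPM) and Gjb6 (1353 to 1669 CPM) overlapped too, and within a library Gja1 was above Gjb6 in 3 of 4. Gjb6 and Gjb2 in cortical cells, and Gjb6 and Gjc3 in subcortical cells, were far apart.

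Across the wider connexin family, 10 of 20 genes had 0 counts in all 8 libraries and 8 passed the filter on low counts. Of these 8, 2 fell in cortical cells, Gjc3 among them, 0 rose and 6 did not pass, against 6.81% called among all genes, and their median log2 fold change was -0.56. DESeq2 and limma-voom each called 3 lower, Gjb6 being the added one. Over all genes DESeq2 called 1029 and limma-voom 779 in either direction, against 802 with edgeR. The level of Gja4, a connexin gene known from vessel cells, was 12 ± 2.29 CPM in cortical samples against 7.18 ± 3.41 CPM in subcortical samples (SD, n = 4, edgeR adjusted p = 0.524). The level of Gjc1, the connexin 45 gene known from mural cells, was 16.1 ± 10.2 CPM in cortical samples against 10.2 ± 11.1 CPM in subcortical samples (SD, n = 4, edgeR adjusted p = 0.704). Its highest library in each region was also the one with the highest sum of mural markers, 1074 CPM in the cortical library of mouse 2 and 1246 CPM in the subcortical library of mouse 3. The part of vessel cells in the levels of Gja4 and Gjc1 was not tested. Gja5 had 9 counts, all in the subcortical library of mouse 2, and Gjd2 had 2 counts over the subcortical libraries.

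Other large-pore channel genes were taken beside Panx1, and 2 of the 5 tested passed, 1 higher and 1 lower in cortical cells, against 3.42% of all genes tested called higher and 3.39% lower, with a median log2 fold change of -0.41. Lrrc8a encodes the obligatory subunit of the volume-regulated anion channel, which astrocytes use to release chloride and amino acids on swelling. It fell in cortical cells, with 170, 203, 190 and 161 CPM in the cortical libraries of mice 1 to 4, against 296, 313, 340 and 341 CPM in the subcortical ones (log2 fold change -0.83, SE 0.16, edgeR adjusted p = 0.00138). Lrrc8c, an accessory subunit of the same channel, rose, with 96.0, 38.1, 75.7 and 75.4 CPM in cortical against 15.8, 7.69, 20.6 and 17.6 CPM in subcortical libraries (log2 fold change 2.19, SE 0.32, edgeR adjusted p = 7.16e-05). For both genes the groups did not overlap. Annotated genes overlap Lrrc8a on both strands and Lrrc8c on its own strand, so reads could be shared with these. The subunit gene Lrrc8b, at 6.48 ± 3.75 CPM in cortical samples against 8.97 ± 4.72 in subcortical ones, and Lrrc8d, at 12.3 ± 2.10 CPM in cortical samples against 11 ± 5.04 in subcortical ones (SD, n = 4), did not pass. Calhm2, a calcium homeostasis modulator gene, did not pass either, at 5.51 ± 3.61 CPM in cortical samples against 7.33 ± 1.25 in subcortical ones (SD, n = 4). Lrrc8e had 5 counts, all in 1 subcortical library, Calhm5 had 1 count, and Calhm1, Calhm3, Calhm4 and Calhm6 had 0.

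**Figure D4:**
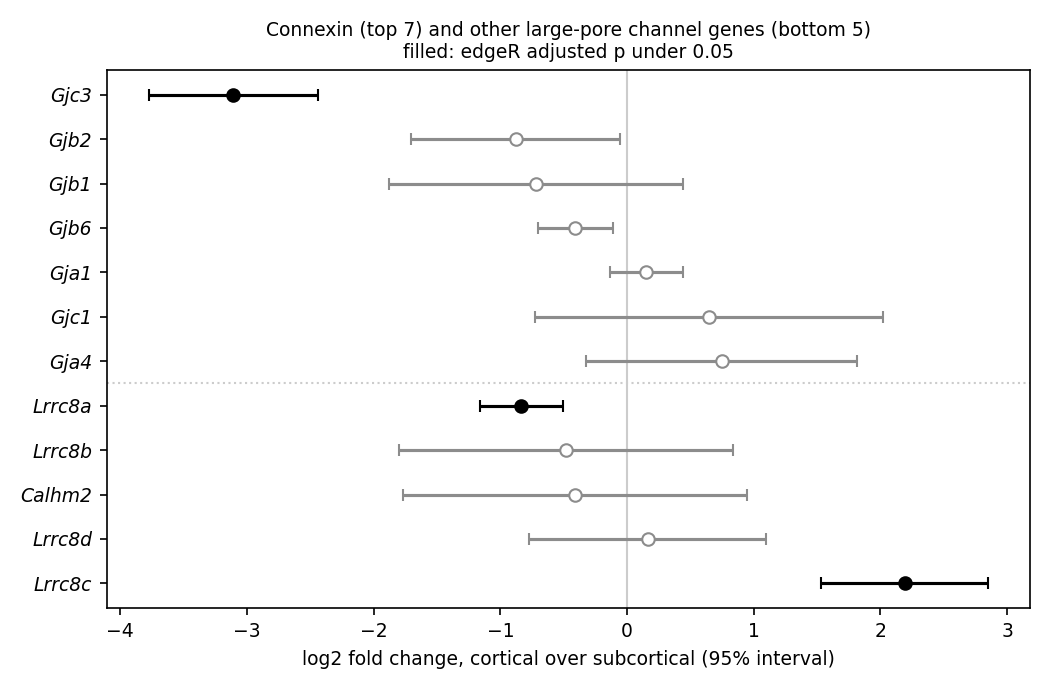
Log2 fold change, cortical over subcortical, with its 95% interval from edgeR for 7 tested connexin genes (above the dotted line) and the 5 tested large-pore channel genes (below it). Filled points passed an adjusted p of 0.05, and these were Gjc3, Lrrc8a and Lrrc8c.

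Genes whose products scaffold, traffic, phosphorylate or degrade connexin 43 were also counted. Of 18 such genes 17 were tested and 0 passed with edgeR, DESeq2 or limma-voom, against 6.81% of all genes with edgeR, so that this count is near the background. With each tool 1 had an unadjusted p under 0.05, and the edgeR median log2 fold change was 0.003. That gene was Src, whose kinase phosphorylates connexin 43, at 84.5 ± 12.7 CPM in cortical samples against 59.1 ± 11.6 CPM in subcortical samples (SD, n = 4, log2 fold change 0.52, SE 0.21, edgeR adjusted p = 0.182). It was chosen after its values were seen. Hepacam, which encodes the adhesion protein GlialCAM at astrocyte junctions, stood at 654 ± 63.6 CPM in cortical samples against 653 ± 104 in subcortical ones (SD, n = 4), and was also chosen after its values were seen.

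The profiles most like each member were sought among 7974 genes with a mean of at least 10 CPM, by the root mean square difference of centred log2 levels over the 8 libraries. Closest to Gja1 were Cox6c, Snx5 and Cxxc1, at differences of 0.038, 0.063 and 0.067, all genes without a called change. Closest to Gjb6 were Dhrs3 and Snrk, both at 0.083, and Kcnc4 at 0.097, with log2 fold changes of -0.38, -0.42 and -0.39, none of which passed. Gjb2 had more distant neighbours, Ppm1d at 0.298, Nceh1 at 0.327 and Siae at 0.355. Closest to Gjc3 were Car10 at 0.293, with 7.87 CPM in cortical samples against 65.9 CPM in subcortical samples on average, Thbs2 at 0.422, with 3.21 CPM in cortical and 26.0 in subcortical libraries, and Fzd10 at 0.475, with 34.2 CPM in cortical and 169 in subcortical libraries. All 3 of these passed the edgeR test as lower in cortical cells, and no gene of the oligodendrocyte list was among them.

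Females and males were compared on counts summed per mouse, 2 mice against 2. None of the 4 tested members passed (edgeR and DESeq2, 0 of 4, also 0 at an unadjusted p under 0.05), against 0.0373% called among 13402 genes. Gja1 averaged 1720 CPM in female and 1793 CPM in male libraries (log2 fold change -0.02, 95% interval -0.35 to 0.30), and Gjb6 1317 CPM in female and 1319 CPM in male libraries (log2 fold change -0.01, 95% interval -0.36 to 0.33). Gjb2 averaged 20.8 CPM in female and 29.1 CPM in male libraries (log2 fold change -0.66, 95% interval -1.45 to 0.12). Gjc3 averaged 38.3 CPM in female and 43.9 CPM in male libraries (log2 fold change -0.30, 95% interval -0.91 to 0.31).

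The regional difference was also taken within each sex, with 2 cortical and 2 subcortical libraries. Gjc3 was lower in cortical cells of females (log2 fold change -3.30, SE 0.47, edgeR adjusted p = 0.000146) and of males (-2.96, SE 0.45, edgeR adjusted p = 0.000303). Gjb6 had log2 fold changes of -0.39 in females and -0.43 in males, and Gja1 of 0.26 in females and 0.05 in males, none of which passed. Gjb2 had log2 fold changes of -1.78 in females (SE 0.51, edgeR adjusted p = 0.0733) and -0.33 in males (SE 0.48, edgeR adjusted p = 0.887). The difference between the sexes in this regional change was -1.45 for Gjb2 (SE 0.69), with an unadjusted edgeR p of 0.0482 and an adjusted p of 1. Over all 13334 genes 0 passed this test (0% called) with edgeR and DESeq2, 1 with the mouse as a block, and 502 had an unadjusted p under 0.05 with edgeR.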

How the data were processed

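Per the labels' protocols, sorted astrocytes were lysed, their RNA was column-purified, and 3′-end libraries were built with Lexogen's forward QuantSeq kit. The sources used here give neither gate nor reporter of the sort. The authors deposited raw counts per gene for each library, 55417 gene rows with 5 closing summary rows, which were left out of totals and fits. Reads assigned to no feature were 30.2 to 40.7% and ambiguous ones 0.38 to 0.55% of a library. The build GRCm39 and the tools HTSeq 0.9.0, STAR 2.6.0, DESeq2 1.35.0 and FastQC 0.11.5 stand in the submitters' processing notes, without settings or use of strand. A series-wide normalized table was not used here.

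Cortical and subcortical libraries were compared with edgeR 4.0.16 (R 4.3.3) on all genes: filterByExpr (a CPM equal to 10 counts at the median library, in 4 or more libraries, with 15 counts overall), TMM, quasi-likelihood tests and Benjamini-Hochberg adjustment at 0.05. This main fit held no term for the mouse and so did not use the pairing by animal. Fold changes are cortical over subcortical and female over male. Ratios within a library were compared with two-sided exact permutation tests that did not pair libraries by mouse, 1 count being added to each term of the ratio with Gjc3. Alternatives were RLE size factors, no scaling, no filter, a filter at a mean of 5 CPM, DESeq2 1.42.0, limma-voom (limma 3.58.1), a sex covariate, a mouse block and leaving out each library. The scripts were tested on simulated data.

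The mouse numbers in the titles pair the libraries by animal. After removal of region means, log2 levels correlated at 0.0321 to 0.0761 between libraries of 1 mouse and at -0.108 to 0.0607 between different mice. Within a region, every pair of libraries differed beyond counting noise (chi-square 12.3 to 26.6 times its degrees of freedom), and each counted as 1 replicate. The members and lists were chosen with earlier results of these data known. Text names all members, the detected genes of the connexin and large-pore lists with exceptions not reported here, called partner genes, the top and zero genes of marker lists where a result turns on them, and the 3 nearest profiles per member (2 CPM added before the log). Floors cover counting error only.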

Additional observations from a re-analysis of the deposited data

How the results depend on the processing

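Gjc3 kept its direction and its call under every alternative run, with log2 fold changes of -3.37 to -2.88 without single libraries and -3.16 to -2.89 otherwise. Gja1 was not called under any (0.12 to 0.36). Gjb6 stayed negative but crossed the threshold by tool, with log2 fold changes of -0.41 by DESeq2 and -0.41 by limma-voom; without single libraries it ran from -0.46 to -0.36 with edgeR adjusted p of 0.096 to 0.235. Gjb2 ran from -1.44 to -0.58 without single libraries and passed without the cortical library of mouse 4. Connexin partner genes called were 0, and 1 without scaling (Src). The count of all genes called by region was 779 to 1029 under other settings and 614 to 775 without single libraries. Causes of these shifts were not tested. With the mouse as a replicate block, 885 genes were called by region and 1 for the interaction of sex and region, and no call of a connexin member changed. Gjb2 came nearest to the threshold there, with a log2 fold change of -1.10 (edgeR adjusted p = 0.0678). In the paired sign-flip tests of the within-library ratios the p could not go below 0.13, with differences of -0.56 for Gjb6 to Gja1, 10.7 points for the Gja1 share and -1.58 for Gjc3 to oligodendrocyte markers. Without single libraries these ran from -0.66 to -0.50, 9.92 to 12.02 and -1.80 to -1.33, with exact p of 0.0286 to 0.0571. Panx1 entered a test only without the low-count filter, where it did not pass (edgeR adjusted p = 0.279). Depth limits Gjb2 and Gjb1, with under 150 counts in each library, Gjc3, with 18 to 53 counts in the cortical libraries, and Panx1.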

Other observations

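The 2 volume-regulated anion channel subunits that passed the regional test were also taken as a ratio. There were 0.566, 0.188, 0.398 and 0.469 Lrrc8c counts per Lrrc8a count in the cortical libraries of mice 1 to 4, against 0.053, 0.025, 0.061 and 0.052 in the subcortical ones. Every cortical ratio was above every subcortical one. This ratio was formed after the levels were seen and was not tested.

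Gjc1 had 11.2 to 27.4 counts per 1000 mural marker counts in cortical and 2.43 to 20.4 in subcortical libraries, and Gja4 9.95 to 25.8 in cortical and 7.28 to 19.4 in subcortical libraries.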
